A study of Mus musculus with 9 samples.

Results

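The genes described here are those that mark eosinophils, the white blood cells whose granules are filled with basic toxic proteins. They are Prg2, Prg3, Epx, Ear1, Ear2, Ear10, Il5ra and Siglecf, chosen by symbol from a table of polyA RNA levels. Of these 8 genes, 7 had a row among the 22942 rows of the table. Ear2 was not analysed here. Of the 7, 6 were found under their own symbol, and Siglecf was read from the row Siglec5, its older name. That name is a synonym of Siglece too, which has a row of its own in the table. The RNA came from mononuclear cells of mouse bone marrow, strain B6.SJL (CD45.1), after retroviral transduction. MLL-AF9 cells carried MSCVneo-MLL-AF9 and MSCVpuro, and control cells carried empty MSCVneo and MSCVpuro, so both groups were transduced with a pair of MSCV retroviruses. MLL-AF9 is a fusion protein of human leukemia that joins a part of the histone methyltransferase MLL to AF9. The labels list 3 RNA libraries per group, and they do not say whether these came from separate animals. The authors deposited 1 pooled value per gene and group, so no spread between libraries can be given beside a level, and the read depth is unknown.

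Eosinophils arise in the bone marrow from myeloid progenitors, and in the mouse their formation depends on the transcription factor Gata1. Interleukin 5 drives their expansion through a receptor made of the specific chain Il5ra and a beta chain shared with other cytokine receptors. Prg2 encodes major basic protein, which forms the crystalline core of the granule, and Prg3 encodes its homologue. Epx encodes eosinophil peroxidase, a heme enzyme of the granule matrix. The Ear genes encode eosinophil-associated ribonucleases, the mouse relatives of the human eosinophil cationic protein and eosinophil-derived neurotoxin. Siglecf encodes an inhibitory sialic acid-binding receptor found on mouse eosinophils and also on alveolar macrophages.

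The Ear genes are near copies of each other, and their upstream sequences are shown here to describe how alike they are before the gene start. In RefSeq gene order (GRCm38.p6), Ear1 and Ear10 are direct neighbours on chromosome 14. The 250 bases before the start of each, on the minus strand, are given with capitals for the bases that differ between them. Over 247 aligned bases 232 were identical (93.9%), and 1 base of Ear10 had no partner. The window of Ear1 is chr14:43819640-43819889 and that of Ear10 is chr14:43923597-43923846.
Ear1: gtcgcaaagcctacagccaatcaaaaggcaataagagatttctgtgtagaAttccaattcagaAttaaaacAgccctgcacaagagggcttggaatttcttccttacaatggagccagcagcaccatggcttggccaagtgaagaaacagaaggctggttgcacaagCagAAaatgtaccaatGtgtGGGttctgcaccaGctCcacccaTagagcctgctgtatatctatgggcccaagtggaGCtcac
Ear10: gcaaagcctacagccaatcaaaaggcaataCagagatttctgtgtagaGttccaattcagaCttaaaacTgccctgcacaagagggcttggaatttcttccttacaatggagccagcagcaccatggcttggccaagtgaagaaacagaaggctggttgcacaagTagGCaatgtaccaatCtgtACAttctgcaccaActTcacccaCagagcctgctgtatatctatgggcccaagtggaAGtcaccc
The same stretch of Ear2 was 99.2% identical to that of Ear1, over 248 aligned bases, and 94.3% identical to that of Ear10. These bases lie before the gene start, so their likeness does not show how far RNA reads of the genes can be separated. The transcript sequences were not compared. Reads of like transcripts may be split or shared by the authors' processing. The separate values of Ear1 and Ear10 are therefore uncertain.

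The short motif GATAA, the core recognised by GATA factors, was sought on both strands of the 250 upstream bases, where it reads GATAA or TTATC. It was present in 2 of the 7 members with an upstream sequence in RefSeq, Prg3 and Il5ra. Of 32851 such windows of mouse genes, 22.6% held it. Prg2 had no entry. These windows are shown because they hold the matches, which are in capitals, and a match here is a description of the letters and not of a bound site. The Prg3 window lies on the plus strand at chr2:84987965-84988214, with matches beginning 123 and 111 bases before the start. The Il5ra window lies on the minus strand at chr6:106749038-106749287, with a match beginning 73 bases before the start.
Prg3: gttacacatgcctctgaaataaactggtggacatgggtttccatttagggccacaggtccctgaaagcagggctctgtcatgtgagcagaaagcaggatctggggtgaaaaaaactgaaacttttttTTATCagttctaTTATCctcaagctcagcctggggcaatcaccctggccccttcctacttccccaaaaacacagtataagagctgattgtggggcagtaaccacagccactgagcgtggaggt
Il5ra: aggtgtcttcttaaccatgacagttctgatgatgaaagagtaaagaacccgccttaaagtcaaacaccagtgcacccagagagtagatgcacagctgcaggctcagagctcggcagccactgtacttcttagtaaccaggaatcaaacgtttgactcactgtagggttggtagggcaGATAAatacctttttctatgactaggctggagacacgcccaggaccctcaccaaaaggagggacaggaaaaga

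The comparison asked how these genes differed between MLL-AF9 and control cells. Both major granule genes, Prg2 and Epx, and both ribonuclease genes, Ear1 and Ear10, were lower in MLL-AF9 cells, with larger ratios for the ribonucleases. Whether ratios differ between genes could not be tested with 1 value per group, here and below. Prg3 and Il5ra were listed at lower values that did not pass, and Siglecf was listed at nearly equal values. Levels are in FPKM, fragments scaled to transcript length and to the mapped total, as read from the tools and values since the header names no unit. A gene was called where its q-value in the authors' deposited table was under 0.05 and the mean of both groups reached 1 FPKM. By this rule 4 of the 7 members were lower and 0 higher, whereas 5.2% of 11538 rows with that mean were called lower and 5.13% higher. Of the 7 members, 6 reached that mean, and Il5ra did not.

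Log2 changes compare FPKM + 1 between MLL-AF9 and control cells, so they understate differences of genes near 1 FPKM, and fold differences are plain ratios of FPKM. The median log2 change was -1.86 over the 7 members and 0.29 over the 11538 rows. The plot of levels by gene gives both values of each member.

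**Figure D1:**
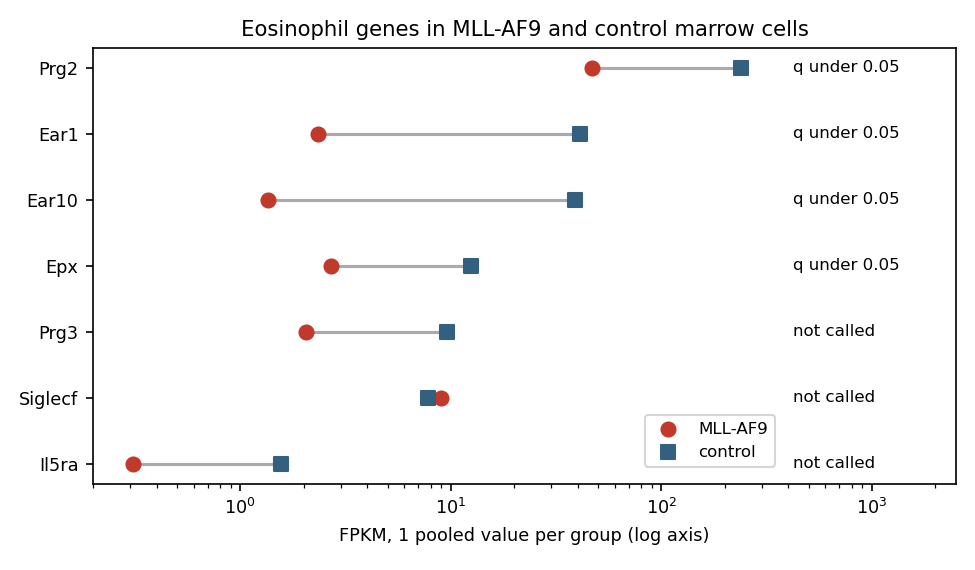
Level of each member in FPKM on a log axis, with 1 pooled value per group: circles for MLL-AF9 cells and squares for control cells, joined by a line, and the call at the right. The MLL-AF9 value lies left of the control value for 6 members, and the Siglecf values, 9.003 and 7.817 FPKM, nearly coincide.

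Among the granule proteins, Prg2 had by far the highest level in both groups. It stood at 46.7 FPKM in MLL-AF9 cells and 238 FPKM in control cells, a 5.10-fold lower level with q = 0.000458 in the authors' deposited table. It lay above 80.3% of expressed rows in MLL-AF9 cells and above 96.4% in control cells. Epx, the peroxidase, stood at 2.70 FPKM in MLL-AF9 cells and 12.4 FPKM in control cells, 4.61-fold lower (q = 0.0211 in the authors' deposited table). Prg3, the homologue of major basic protein, was listed at 2.05 FPKM in MLL-AF9 cells and 9.63 FPKM in control cells. This ratio of 4.70 is close to those of Prg2 and Epx, but it did not pass (q = 0.1003 in the authors' deposited table). Prg2 and Prg3 are direct neighbours in the RefSeq gene order of chromosome 2.

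The proportions among Prg2, Epx and Prg3 were alike in both groups. Prg2 was 17.3 times as high as Epx in MLL-AF9 cells and 19.2 times in control cells. It was 22.8 times as high as Prg3 in MLL-AF9 cells and 24.8 times in control cells.

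The ribonuclease genes had the largest ratios of the 7 members. Ear10 stood at 1.35 FPKM in MLL-AF9 cells and 38.8 FPKM in control cells, 28.7-fold lower with q = 2.29e-05 in the authors' deposited table. Ear1 stood at 2.34 FPKM in MLL-AF9 cells and 40.9 FPKM in control cells, 17.5-fold lower with q = 5.19e-05 in the authors' deposited table. Their log2 changes of -4.08 and -3.65 lay lower than all but 0.407% and 0.641% of the expressed rows. Prg2 was 34.6 times as high as Ear10 in MLL-AF9 cells and 6.13 times in control cells. In shares of the members' summed FPKM, Ear1 made up 3.63% in MLL-AF9 cells and 11.7% in control cells, and Ear10 made up 2.10% in MLL-AF9 cells and 11.1% in control cells.

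The surface genes did not pass. Il5ra, the interleukin 5 receptor chain, was listed at 0.310 FPKM in MLL-AF9 cells and 1.56 FPKM in control cells. That is a ratio of 5.04, near the ratios of Prg2, Prg3 and Epx, at a level where the q-value in the authors' deposited table was 0.101. Siglecf was listed at 9.003 FPKM in MLL-AF9 cells and 7.817 FPKM in control cells (q = 0.894 in the authors' deposited table). Its log2 difference of 0.18 turned to -0.12 under quantile normalization and to -0.11 after centring on the median row, so it has no stable sign. A q-value above the threshold does not show that the receptor's RNA was equal in the 2 groups.

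The order of levels therefore differed between the groups. In MLL-AF9 cells the order from high to low was Prg2, Siglecf, Epx, Ear1, Prg3, Ear10 and Il5ra. In control cells it was Prg2, Ear1, Ear10, Epx, Prg3, Siglecf and Il5ra. Siglecf made up 14.0% of the members' summed FPKM in MLL-AF9 cells and 2.24% in control cells, and Prg2 made up 72.5% in MLL-AF9 cells and 68.2% in control cells. Which neighbours in these orders differ cannot be said without values per library. The summed level was 64.4 FPKM in MLL-AF9 cells and 349 FPKM in control cells, 5.42-fold lower. In RNA of mixed cells, fewer eosinophil-lineage cells and less RNA of these genes per cell cannot be told apart.

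**Figure D2:**
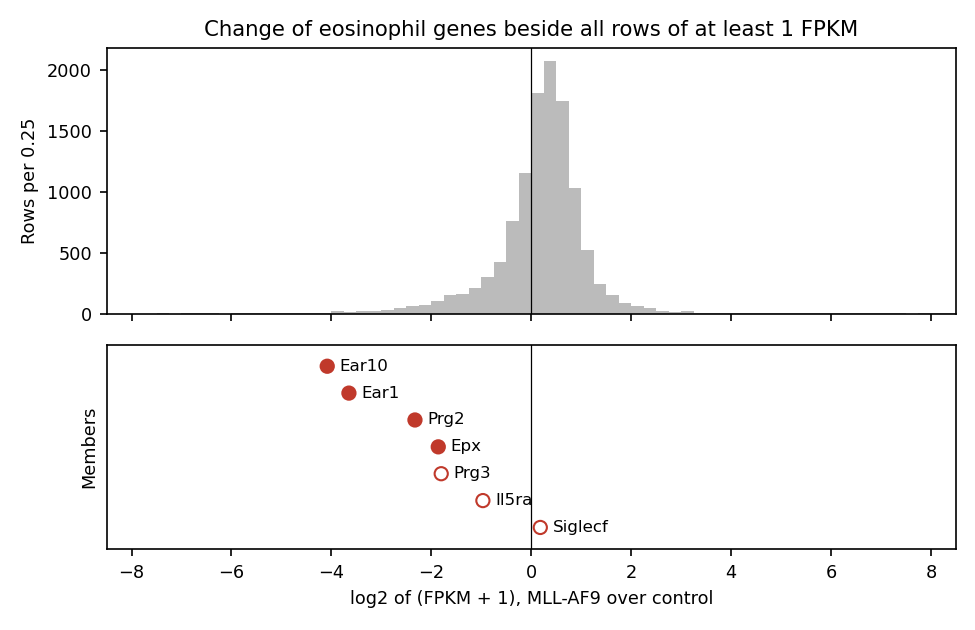
Upper panel: number of rows whose mean reached 1 FPKM, by log2 change of (FPKM + 1), MLL-AF9 over control, in steps of 0.25. Lower panel: the 7 members on the same axis, filled where called lower. The members run from Ear10 at -4.08 to Siglecf at 0.18, and the median row lies at 0.29.

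As plain ratios of FPKM, the members were listed at separate sizes, but these groups depend on the scale. With 5 FPKM added to each value, the log2 change was -2.23 for Prg2, -2.64 for Ear1 and -2.79 for Ear10. On that scale it was -1.18 for Epx, -1.05 for Prg3 and -0.31 for Il5ra. Prg2, Prg3, Epx and Il5ra had ratios of control to MLL-AF9 FPKM between 4.61 and 5.10, the ribonuclease genes had ratios of 17.5 and 28.7, and Siglecf was not lower. A level at least 4-fold lower, a limit taken after the values were seen, was found for 5 of the 6 members with a mean of at least 1 FPKM and for 4.5% of the rows with that mean. Il5ra, below that mean, was also past this limit.

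The interleukin 5 receptor belongs to a family with the interleukin 3 and GM-CSF receptors, which use the same beta chain. A list of ligands, receptor chains and signalling genes of that family had 14 genes, of which 13 had a row and 10 reached 1 FPKM. Of these 10, 0 were called lower and 0 higher, a count near the shares of 5.2% and 5.13% among all rows, and their median log2 change was -0.11. Csf2rb, the shared beta chain, was listed at 79.4 FPKM in MLL-AF9 cells and 70.2 FPKM in control cells. Csf2ra, the GM-CSF receptor chain, was listed at 187 FPKM in MLL-AF9 cells and 197 FPKM in control cells. Il3ra, the interleukin 3 receptor chain, was listed at 45.1 FPKM in MLL-AF9 cells and 21.9 FPKM in control cells without passing. The kinase gene Jak2 was listed at 30.7 FPKM in MLL-AF9 cells and 23.3 FPKM in control cells. The cytokine Il5 itself was listed at 0.0239 FPKM in MLL-AF9 cells and at 0 in control cells, and Il3 at 0 in both. In both groups the shared beta chain had a higher level per length than the specific chain Il5ra, whose 2 values are given above.

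Of 17 genes of eosinophil migration and other surface proteins, 16 had a row, 10 reached 1 FPKM, 2 were lower and 0 were higher. Ccr3, the eotaxin receptor that guides eosinophils into tissue, stood at 0.0932 FPKM in MLL-AF9 cells and 1.99 FPKM in control cells, 21.3-fold lower (q = 0.000436 in the authors' deposited table). Adgre4, an adhesion receptor of myeloid cells read from the row Emr4, was 32.2-fold lower, at 0.416 FPKM in MLL-AF9 cells and 13.4 FPKM in control cells (q = 1.19e-07 in the authors' deposited table). On the log2 scale of FPKM + 1 the difference was -1.45 for Ccr3, whose MLL-AF9 level is near 0, and -3.35 for Adgre4. The related receptor Adgre1, which encodes F4/80, was listed at 35.3 FPKM in MLL-AF9 cells and 20.7 FPKM in control cells without passing. The eotaxin Ccl11 was listed at 0 in both groups, and the histamine receptor Hrh4 at 0 in MLL-AF9 cells and 0.459 FPKM in control cells. Ptgdr2, a prostaglandin D receptor read from the row Gpr44, was listed at 0.506 FPKM in MLL-AF9 cells and 0.0791 FPKM in control cells, likewise below a mean of 1 FPKM. The integrin genes Itga4, at 82.8 FPKM in MLL-AF9 cells and 26.8 FPKM in control cells (q = 0.0666 in the authors' deposited table), and Itgb7, at 169 FPKM in MLL-AF9 cells and 98.0 FPKM in control cells, were listed at higher values without passing. Itgam was listed at 227 FPKM in MLL-AF9 cells and 399 FPKM in control cells, and Fcer1g at 648 and 959 FPKM, without passing. Ccr1, Cd300a and Pirb, the last read from the row Lilrb3, were likewise listed at lower values in MLL-AF9 cells without passing. The median log2 change of the 10 genes that reached 1 FPKM was -0.75.

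Of 10 lipid mediator genes of eosinophils, all with a row and 8 at 1 FPKM or more, 2 were lower and 0 higher, with a median log2 change of -0.42 over the 8. Alox15, a lipoxygenase of eosinophils and macrophages, stood at 2.11 FPKM in MLL-AF9 cells and 9.56 FPKM in control cells. That is 4.52-fold lower (q = 0.0407 in the authors' deposited table), close to the ratios of Prg2, Prg3, Epx and Il5ra. Alox5, which starts leukotriene synthesis and is shared with other myeloid cells, was 3.87-fold lower, at 34.3 FPKM in MLL-AF9 cells and 133 FPKM in control cells (q = 0.00522 in the authors' deposited table). Ltc4s, which makes leukotriene C4, was listed at 1.49 FPKM in MLL-AF9 cells and 0.731 FPKM in control cells without passing. Cysltr1, a leukotriene receptor, was listed at 8.55 FPKM in MLL-AF9 cells and 2.52 FPKM in control cells (q = 0.0923 in the authors' deposited table).

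Of 14 regulators of the eosinophil lineage, 13 had a row and reached 1 FPKM. Gata1 and its cofactor Zfpm1 were lower, Gfi1 was higher, and the median log2 change was 0.27. Gata1 stood at 1.35 FPKM in MLL-AF9 cells and 10.2 FPKM in control cells, 7.59-fold lower with q = 0.00727 in the authors' deposited table. Zfpm1 stood at 1.75 FPKM in MLL-AF9 cells and 8.26 FPKM in control cells, 4.72-fold lower with q = 0.0250 in the authors' deposited table. Both genes also serve red cells and megakaryocytes, so they are not markers of eosinophils alone. Gfi1, a transcriptional repressor required for neutrophil development, stood at 65.0 FPKM in MLL-AF9 cells and 22.2 FPKM in control cells (q = 0.0286 in the authors' deposited table). Gata2 was listed at 27.2 FPKM in MLL-AF9 cells and 11.2 FPKM in control cells, and Cebpe, needed for late granulocyte maturation, at 83.7 FPKM in MLL-AF9 cells and 188 FPKM in control cells. Neither passed, with q = 0.108 and 0.148 in the authors' deposited table. Cebpa was listed at 39.0 FPKM in MLL-AF9 cells and 30.1 FPKM in control cells.

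In the lists of other ribonucleases and of other heme peroxidases, only 1 gene each reached 1 FPKM and could be called. Neither was called, a count near the shares of 5.2% lower and 5.13% higher among all rows. It says little about these families. Of 16 other Ear and RNase A genes, 7 had a row and 1, Rnase6, reached 1 FPKM, at 66.5 FPKM in MLL-AF9 cells and 58.4 FPKM in control cells without passing. Ear5 was listed at 0 in MLL-AF9 cells and 1.01 FPKM in control cells, and Ear11 at 0.327 FPKM in MLL-AF9 cells and 0.945 FPKM in control cells. Among 4 other heme peroxidases, only Mpo reached 1 FPKM. Mpo, the peroxidase of neutrophil and monocyte granules and a near neighbour of Epx on chromosome 11, was listed at 627 FPKM in MLL-AF9 cells and 927 FPKM in control cells (q = 0.772 in the authors' deposited table).

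Of 8 other sialic acid-binding receptors, all with a row and 6 at 1 FPKM or more, 3 were lower and 1 was higher, with a median log2 change of -0.86 over the 6. Siglecg, an inhibitory receptor of B cells and the direct neighbour of Siglecf in gene order, was 6.23-fold lower, at 8.38 FPKM in MLL-AF9 cells and 52.2 FPKM in control cells (q = 0.000147 in the authors' deposited table). Siglece, a receptor of neutrophils and other myeloid cells, stood at 17.8 FPKM in MLL-AF9 cells and 95.6 FPKM in control cells (q = 0.000288 in the authors' deposited table). The B cell receptor Cd22 stood at 6.39 FPKM in MLL-AF9 cells and 24.7 FPKM in control cells (q = 0.000826 in the authors' deposited table). Mag, known from myelin, was the one that was higher, at 9.71 FPKM in MLL-AF9 cells and 1.14 FPKM in control cells (q = 0.00248 in the authors' deposited table). Siglecf thus sat among receptors listed at both higher and lower values.

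A list of 7 other granule genes of myeloid cells, which holds the primary granule genes Elane, Prtn3 and Ctsg, had 0 called lower and 0 higher. Its median log2 change was 0.72. Its summed level was 5746 FPKM in MLL-AF9 cells and 15188 FPKM in control cells, and Lyz2 made up most of the control sum. Elane was listed at 1488 FPKM in MLL-AF9 cells and 904 FPKM in control cells, Prtn3 at 1024 and 550 FPKM, and Ctsg at 955 and 374 FPKM. Ms4a3 was also listed at a higher value in MLL-AF9 cells, and Serpinb1a at a lower one, at 239 and 324 FPKM. Srgn, which encodes the granule proteoglycan serglycin, was listed at 813 FPKM in MLL-AF9 cells and 613 FPKM in control cells. Lyz2, a lysozyme of myeloid cells, was listed at 889.6 FPKM in MLL-AF9 cells and 12233 FPKM in control cells without passing (q = 0.101 in the authors' deposited table).

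Markers of other granule-bearing cells moved in the same comparison, and their part in the members' values was not tested. Of 13 neutrophil secondary granule and late markers, 12 had a row, 10 were lower and 0 higher, with a median log2 change of -3.71 and a summed level of 23510 FPKM in MLL-AF9 cells and 199970 FPKM in control cells. S100a8, at 16211 FPKM in MLL-AF9 cells and 130850 FPKM in control cells, made up most of both sums. Retnlg and Mmp8 were 172-fold and 50.8-fold lower, and Ltf, which encodes lactoferrin, was 47.2-fold lower. Of 14 mast cell and basophil markers, all with a row and 8 at 1 FPKM or more, 3 were lower and 1 was higher, with a median of -0.38 over the 8 and a summed level of 459 FPKM in MLL-AF9 cells and 773 FPKM in control cells. The mast cell proteases Tpsb2, Mcpt1 and Mcpt4 were listed at 0 in both groups. Fcer1a, a chain of the IgE receptor, stood at 1.12 FPKM in MLL-AF9 cells and 27.9 FPKM in control cells. Hdc, the histamine-forming enzyme, stood at 15.8 FPKM in MLL-AF9 cells and 157 FPKM in control cells. Cpa3, a protease of mast cells and basophils, stood at 200 FPKM in MLL-AF9 cells and 31.1 FPKM in control cells. Prss34, another protease gene of this list, stood at 69.5 FPKM in MLL-AF9 cells and 311 FPKM in control cells. That is 4.48-fold lower (q = 0.00135 in the authors' deposited table), close to the ratios of Prg2 and Epx. Mcpt8, a basophil protease, was listed at 140 FPKM in MLL-AF9 cells and 217 FPKM in control cells without passing. Ms4a2 was listed at a higher value, at 12.0 FPKM in MLL-AF9 cells and 6.74 FPKM in control cells, without passing. Cd200r3, at 7.22 and 6.35 FPKM, and Kit, at 12.9 and 14.3 FPKM, did not pass either.

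Siglecf is also carried by some macrophages. Of 13 macrophage and monocyte markers, all with a row and 11 at 1 FPKM or more, 5 were lower and 0 higher, with a median of -0.46 over the 11 and a summed level of 1631 FPKM in MLL-AF9 cells and 2008 FPKM in control cells. Ly6c2, listed at 1245 FPKM in MLL-AF9 cells and 1566 FPKM in control cells without passing, made up most of both sums. The complement genes C1qa, C1qb and C1qc were 9.80-fold, 13.2-fold and 13.0-fold lower. Vcam1, an adhesion molecule of marrow macrophages and stroma, was 5.82-fold lower. Csf1r, the receptor for the macrophage growth factor, was listed at 82.4 FPKM in MLL-AF9 cells and 81.3 FPKM in control cells. Other genes of the list had higher values in MLL-AF9 cells without passing. They were Cd68, at 120 FPKM in MLL-AF9 cells and 87.6 FPKM in control cells, Cx3cr1, at 35.8 and 23.8 FPKM, and Nr4a1, at 28.5 and 23.0 FPKM. Ccr2 was listed at a lower value, at 111 and 153 FPKM, without passing. Marco, a scavenger receptor of alveolar macrophages, was listed at 0.0357 FPKM in MLL-AF9 cells and at 0 in control cells. The part of these cells in the Siglecf values was not tested.

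**Figure D3:**
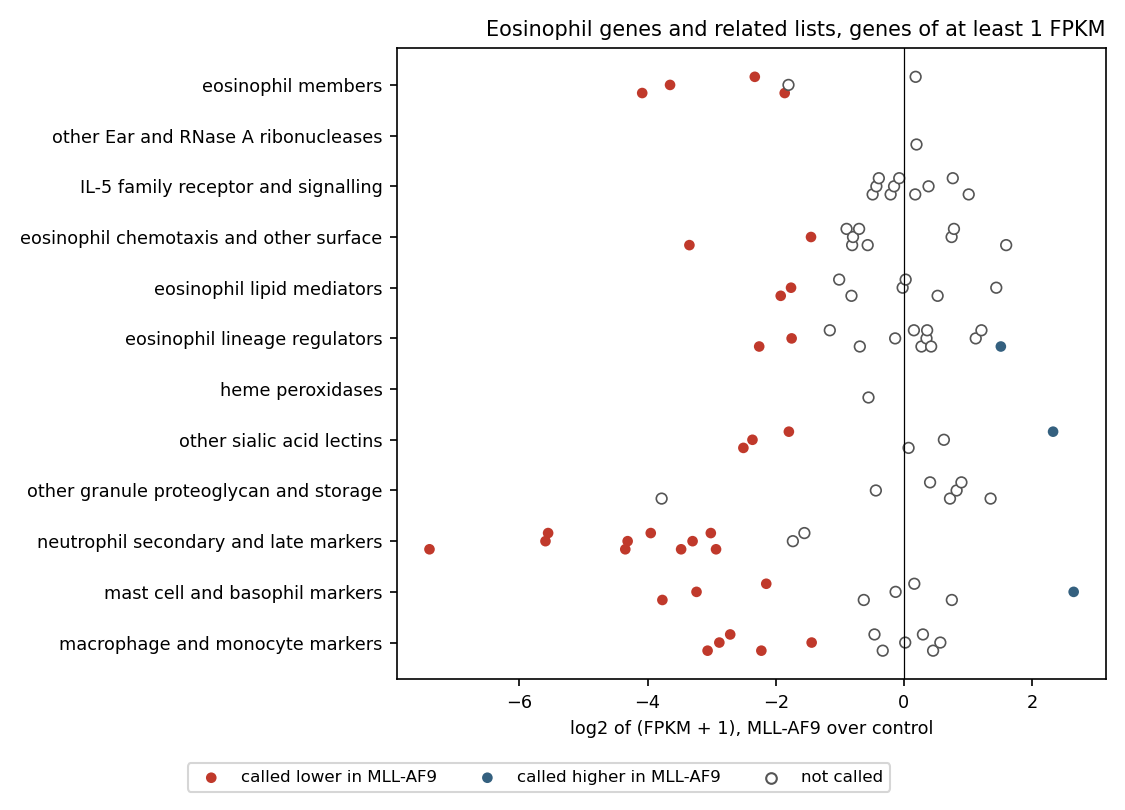
Log2 change of (FPKM + 1), MLL-AF9 over control, for each gene with a mean of at least 1 FPKM in the eosinophil members and 11 lists of related genes, 1 point a gene. The neutrophil list reaches furthest to the left, at -7.40 for Retnlg. The interleukin 5 family list, the other ribonuclease list, the heme peroxidase list and the other granule list hold no called gene.

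Genes with levels most like those of Prg2 and Epx were sought by the distance between log2(FPKM + 1) values, over only 2 group values, which is too few to show a shared pattern. Nearest to Prg2 were Lrg1, at 38.6 FPKM in MLL-AF9 cells and 256 FPKM in control cells, then Ckap4 and H2-Eb1, at distances of 0.29, 0.32 and 0.32. Nearest to Epx were Dleu2, at 2.55 FPKM in MLL-AF9 cells and 13.0 FPKM in control cells, then Lat and St6gal1, at distances of 0.085, 0.13 and 0.14.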

How the data were processed

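PolyA RNA of 3 MLL-AF9 and 3 control samples was used. The 5hmC region lists and the input sample were not used, because no annotation of build mm9 was at hand. The deposited table gives 1 pooled FPKM value per gene and group, made by the authors, and the authors' p-value and q-value for MLL-AF9 against control cells, with a test not given in the sources used here. FPKM as the unit was inferred from the tools and values. The labels' protocols speak of duplicates per genotype, so which libraries entered the pooled values is not known. TopHat 1.4.1 and Cufflinks 1.3.0 with mm9 are named, without roles, per the submitters' processing notes. The library kit does not mark strand, so overlapping antisense RNA cannot be separated.

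No test was computed from the values, since there is 1 value per group. The limma fit planned for values per library therefore did not apply. S100a9, at 0 in control cells with a p-value of 1, was left out as a failed estimate. The members and the 11 gene lists were chosen with earlier results of these data known. Named genes are all members, called or descriptive genes of the 5 closest lists, up to 3 called genes of smallest q-value in each other list, with some others chosen after their values were seen, and 3 nearest genes each for Prg2 and Epx. Upstream sequences and gene order are from RefSeq, GRCm38.p6, aligned with Biopython 1.88 (end gaps free). Python 3.11.15, numpy 2.4.6, pandas 2.3.3 and matplotlib 3.10.9 were used, and the calculations were tested on simulated data. Alternatives were other pseudocounts, minimum levels, q-value limits and scalings.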

Additional observations from a re-analysis of the deposited data

How the results depend on the processing

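The count of 4 members lower in MLL-AF9 cells was 4 with no minimum level, with a mean of at least 5 FPKM, and with the authors' p-values adjusted anew by Benjamini-Hochberg over rows of at least 1 FPKM, and 3 at a q-value under 0.01, where Epx was no longer called. The members' median log2 change of -1.86 was -2.18 with a pseudocount of 0.1, -1.18 with a pseudocount of 5, -2.09 under quantile normalization, -2.15 after median centring and -2.09 over the 6 members with a mean of at least 1 FPKM (chosen after seeing the data) or of at least 5 FPKM. The log2 change of Siglecf, 0.18, was -0.12 under quantile normalization and -0.11 after median centring, which subtracts the median row's 0.29. The other 6 members kept a negative sign under the 4 alternatives run for them. The 11 lists held 27 lower and 3 higher genes, and 25 and 3 with a mean of at least 5 FPKM. Of the 27 lower genes, 10 came from the neutrophil list alone. Between 1 and 13 genes per list reached 1 FPKM. Across the whole table, 5.2% of the genes expressed at that level were called lower and 5.13% higher. The lists were picked with earlier results known, so these counts do not show a general fall of related genes. Matching by symbol alone, also chosen after seeing the data, leaves 6 members, without Siglecf. No paired analysis was possible because the table holds 1 pooled value per group, and for the same reason no replicate could be left out. Depth is unknown, so the precision of low values such as those of Il5ra and Ear10 cannot be given.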
